A study of Rattus norvegicus with 48 samples.

Results

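The 6 CC chemokine genes Ccl2, Ccl3, Ccl4, Ccl5, Ccl7 and Ccl20 were taken by symbol from a table of 30211 genes, and all 6 were present. Polyadenylated RNA was sequenced from primary mixed cultures of cortex of Sprague-Dawley rat fetuses at 18 days of gestation, used after 21 days in vitro, in 48 libraries that fell into 16 groups of 3. Tat, the transactivator protein of HIV, was given at 6 ng/mL for 48 h and cocaine at 25 µM for 24 h. The study describes cocaine as added after the 48 h of Tat, with or without 4OI. Cultures with and without cocaine may thus also differ in total time. The small molecules were given for 48 h: 4OI (4-octyl itaconate, a cell-permeable ester of the macrophage metabolite itaconate) at 250 µM, Amlexanox (an inhibitor of the kinases TBK1 and IKKε) at 25 µM, Tazemetostat (an inhibitor of the histone methyltransferase EZH2) at 3 µM, and Senicapoc (a blocker of the potassium channel KCNN4) at 1 µM. The groups were Control, Cocaine, Tat and Tat-Cocaine, each compound alone, each compound with Tat, and each compound with Tat and cocaine. The labels call the cells neurons, but the cultures also held glia, and no label says that replicates came from separate litters, so p-values measure the spread between these libraries, which may be technical. Whether the Control cultures received a vehicle is not given in the sources used here.

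CC chemokines are small secreted proteins that draw leukocytes along a gradient by binding receptors of the CCR family. Ccl2 and Ccl7 are monocyte attractants that act through Ccr2, Ccl3 and Ccl5 are ligands of Ccr1, Ccl4 is a close relative of Ccl3, and Ccl20 is the ligand of Ccr6. In the brain they are made by microglia, astrocytes and endothelium when these cells are activated, in large part through the transcription factor NF-κB.

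RefSeq promoters (assembly GRCr8) matched 2 of the 6 genes, Ccl7 and Ccl20. The 250 bases before each start site are shown because both hold 1 match to the NF-κB consensus (the κB motif), in capitals, on the strand opposite to the gene. The Ccl7 window lies at chr10:67513845-67514094, plus strand, and its κB match begins 59 bases before the start site. The Ccl20 window lies at chr9:91836909-91837158, plus strand, with the match beginning 89 bases before the start site.
Ccl7: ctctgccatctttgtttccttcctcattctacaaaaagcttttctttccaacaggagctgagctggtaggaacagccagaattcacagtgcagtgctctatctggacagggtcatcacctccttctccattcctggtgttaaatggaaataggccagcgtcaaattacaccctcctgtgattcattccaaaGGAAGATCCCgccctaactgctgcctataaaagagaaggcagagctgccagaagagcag
Ccl20: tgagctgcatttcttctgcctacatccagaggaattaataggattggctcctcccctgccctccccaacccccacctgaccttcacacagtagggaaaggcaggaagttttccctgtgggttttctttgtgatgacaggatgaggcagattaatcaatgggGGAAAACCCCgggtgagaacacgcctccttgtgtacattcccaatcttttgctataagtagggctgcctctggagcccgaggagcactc
Of the 33469 rat promoter windows of this length, 6.33% held a κB match when both strands were searched. The AP-1 motif TGANTCA was found once in the Ccl7 window, beginning 73 bases before the start site and not overlapping the κB match, and was not found in the Ccl20 window (6.34% of all windows held it). The core of the antioxidant response element bound by Nrf2, TGACNNNGC, was in neither window (10.1% of all windows held it). These matches describe letters in a window and say nothing of binding in these cultures. In the same annotation Ccl2 and Ccl7 are direct neighbours on chromosome 10, Ccl3 and Ccl4 are neighbours on the same chromosome beside Ccl6, Ccl5 lies beside Ccl9, and Ccl20 stands apart on chromosome 9.

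Values are in counts per 1e+06 reads (CPM) as normalised by the authors, and are not scaled for gene length, so levels were compared between groups and not between genes. Sequencing gave 17.5 to 29.1 M reads on genes per library (median 22.4 M, in units of 1e+06 reads), and 1 read was worth 0.0334 to 0.0583 CPM. All 6 genes passed the filter of 0.5 CPM in 3 libraries, and Ccl20, the gene with fewest reads in cultures without Tat, reached it in 6 of those 18 libraries. Astrocyte, neuron and microglia markers were present in every library, and T and NK cell markers never exceeded 0.164 CPM. The Cocaine replicate 3 library stood apart in summed oligodendrocyte markers at 24622 CPM, against a median of 661 CPM over the 48 libraries, and its 6 chemokine values lay within the range of the other libraries without Tat. In bulk RNA, fewer cells of a type and less RNA per cell cannot be told apart.

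Ccl2, the main attractant of monocytes, was lower by mean in each of the 6 groups without Tat than in each of the 10 groups with it. Its 3 Control libraries read 12.6, 89.97 and 15.7 CPM and the 3 Tat libraries 704, 916 and 782 CPM. With Tat and cocaine the libraries read 319, 974 and 737 CPM. The Control and Tat ranges did not overlap, although 1 Control library lay several times above the other 2. The cultures given one agent without Tat read 10.8, 36.7 and 26.5 CPM with Cocaine, 16.9, 15.2 and 15.4 CPM with 4OI and 17.96, 98.7 and 95.5 CPM with Amlexanox. Tazemetostat alone gave 62.6, 33.9 and 17.9 CPM and Senicapoc alone 15.5, 111 and 17.5 CPM. The 4OI libraries were the most alike of the groups without Tat, and Senicapoc replicate 2 was the highest library without Tat, above the lowest Tat-4OI library. Among Tat cultures, Tat-4OI read 99.7, 386 and 198 CPM, Tat-Amlexanox 415, 447 and 357 CPM, Tat-Tazemetostat 527, 670.1 and 461 CPM and Tat-Senicapoc 315, 381 and 347 CPM. With cocaine as well, Tat-Cocaine-4OI read 218, 448 and 194 CPM, Tat-Cocaine-Amlexanox 477, 552 and 364 CPM, Tat-Cocaine-Tazemetostat 601, 723 and 582 CPM and Tat-Cocaine-Senicapoc 447, 536 and 418 CPM. By group mean the order ran from Tat (800.4 ± 107 CPM, mean ± SD, n = 3) to Tat-4OI (228 ± 146 CPM), then Amlexanox (70.7 ± 45.7 CPM) down to 4OI (15.8 ± 0.919 CPM). Of the 15 pairs of neighbours in that order, 14 overlapped, and the one that did not was Tat-4OI and Amlexanox, the step between cultures with and without Tat.

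Ccl7, the neighbour of Ccl2 and a second ligand of Ccr2, followed the same pattern. Control libraries held 7.02, 44.6 and 12.1 CPM, those of Tat 527, 646 and 550.0 CPM and those of Tat-Cocaine 272, 726 and 572 CPM. The agents without Tat gave 7.55, 22.5 and 19.2 CPM for Cocaine, 8.62, 10.8 and 11.2 CPM for 4OI, 11.4, 64.6 and 50.2 CPM for Amlexanox, 31.7, 23.5 and 17.8 CPM for Tazemetostat and 10.03, 69.1 and 10.9 CPM for Senicapoc. The libraries that were high for Ccl2 without Tat were high for Ccl7 too, with Control replicate 2, Amlexanox replicates 2 and 3 and Senicapoc replicate 2 above all others without Tat. Tat-4OI read 65.8, 241 and 126 CPM and Tat-Cocaine-4OI 135, 268 and 117 CPM. Tat-Amlexanox read 301, 321 and 299 CPM, Tat-Tazemetostat 381, 436 and 326 CPM and Tat-Senicapoc 274, 292 and 269 CPM. Tat-Cocaine-Amlexanox read 366, 372 and 264 CPM, Tat-Cocaine-Tazemetostat 417, 469 and 403 CPM and Tat-Cocaine-Senicapoc 363, 394 and 334 CPM. The 2 groups with 4OI and Tat held the lowest Ccl7 of the 10 groups with Tat, and Tat (574 ± 62.97 CPM) and Tat-Cocaine (523 ± 231 CPM) the highest. In the order of group means, 12 of 15 neighbours overlapped.

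Ccl20, which attracts Ccr6-bearing lymphocytes and dendritic cells, was close to the limit of counting without Tat. It read 0.383, 1.27 and 0.182 CPM in Control and 172, 141 and 127 CPM in Tat, and the Tat-Cocaine libraries read 38.6, 172 and 156 CPM. Without Tat the 18 libraries held 0 to 59 Ccl20 reads with a median of 5, so values there carry large counting errors. The agents alone gave 0.0943, 1.19 and 0.322 CPM with Cocaine, 0.184, 0 and 0.0417 CPM with 4OI, 0.167, 1.59 and 1.496 CPM with Amlexanox, 0.672, 0.189 and 0.195 CPM with Tazemetostat and 0.1003, 2.28 and 0.137 CPM with Senicapoc. The 0 in 4OI replicate 2 allows a level of up to 0.129 CPM, which is what 3 reads were worth there, and this limit covers counting error only. All 30 libraries with Tat lay above all 18 without it, and the share of all genes for which this held was not computed. Tat-4OI cultures read 4.66, 12.96 and 7.103 CPM and Tat-Cocaine-4OI cultures 7.54, 23.4 and 10.4 CPM. The other compounds with Tat gave 42.5, 54.6 and 28.3 CPM for Amlexanox, 44.5, 80.6 and 31.2 CPM for Tazemetostat and 28.2, 42.8 and 46.2 CPM for Senicapoc. With Tat and cocaine they gave 62.8, 81.6 and 42.8 CPM for Amlexanox, 96.7, 95.5 and 99.5 CPM for Tazemetostat and 78.2, 111 and 97.2 CPM for Senicapoc. Group means ran from 147 ± 23.2 CPM for Tat, then 122 ± 72.9 CPM for Tat-Cocaine, to 13.8 ± 8.45 CPM in Tat-Cocaine-4OI and 8.24 ± 4.27 CPM in Tat-4OI. Neighbours in this order overlapped in 12 of 15 pairs, and the libraries of Tat-Senicapoc and Tat-Cocaine-4OI, next to each other in the order, did not.

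Ccl5, an attractant of T cells, monocytes and eosinophils, was also scarce without Tat. Control libraries read 0.537, 5.197 and 0.681 CPM, Tat libraries 56.2, 79.6 and 83.1 CPM and Tat-Cocaine libraries 35.7, 133 and 51.5 CPM. Cocaine alone gave 0.189, 0.595 and 0.201 CPM, 4OI 0.147, 0.216 and 0.125 CPM, Amlexanox 0.125, 4.07 and 3.79 CPM, Tazemetostat 1.08, 0.605 and 0.273 CPM and Senicapoc 0.167, 8.62 and 0.446 CPM. The 4OI libraries, at 3 to 5 reads each, lay below all 3 Control libraries, and the highest libraries without Tat were Senicapoc replicate 2, Control replicate 2 and Amlexanox replicates 2 and 3. Tat-4OI read 18.996, 12.2 and 24.03 CPM, Tat-Amlexanox 24.5, 25.4 and 16.3 CPM, Tat-Tazemetostat 122, 47.3 and 59.8 CPM and Tat-Senicapoc 47.98, 15.3 and 18.1 CPM. Tat-Cocaine-4OI read 15.5, 13.2 and 12.6 CPM, Tat-Cocaine-Amlexanox 25.1, 21.8 and 12.5 CPM, Tat-Cocaine-Tazemetostat 81.4, 42.6 and 51.02 CPM and Tat-Cocaine-Senicapoc 23.4, 28.5 and 23.4 CPM. By group mean, Tat-Tazemetostat (76.5 ± 40.2 CPM), Tat-Cocaine (73.3 ± 52.1 CPM) and Tat (72.97 ± 14.6 CPM) stood highest and overlapped one another. Of the 15 pairs of neighbours, 14 overlapped.

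Ccl3 and Ccl4, neighbouring genes for chemokines that are typical products of activated microglia and macrophages, moved over a smaller range. For Ccl3, Control read 1.69, 3.19 and 3.63 CPM, Tat read 23.4, 19.96 and 6.85 CPM and Tat-Cocaine read 2.92, 11.1 and 16.1 CPM. Tat replicate 3 and Tat-Cocaine replicate 1 were the low libraries of their groups, and the latter lay within the Control range. Without Tat, Ccl3 read 2.31, 5.46 and 2.92 CPM with Cocaine, 2.76, 8.37 and 2.77 CPM with 4OI, 2.34, 2.73 and 2.86 CPM with Amlexanox, 2.53, 5.88 and 5.99 CPM with Tazemetostat and 2.24, 1.37 and 1.77 CPM with Senicapoc. It read 2.46, 6.32 and 3.09 CPM in Tat-4OI, 10.9, 11.5 and 5.17 CPM in Tat-Amlexanox, 14.7, 29.2 and 8.12 CPM in Tat-Tazemetostat and 3.37, 10.7 and 9.66 CPM in Tat-Senicapoc. With cocaine as well it read 2.76, 8.75 and 4.63 CPM with 4OI, 11.7, 12.2 and 9.07 CPM with Amlexanox, 27.7, 33.5 and 24.4 CPM with Tazemetostat and 10.6, 16.5 and 9.36 CPM with Senicapoc. Tat-4OI lay among the groups without Tat, below Tazemetostat and 4OI alone by mean. Of the 30 libraries with Tat, 20 exceeded every library without it, a count that was not made over all genes. The highest group was Tat-Cocaine-Tazemetostat at 28.5 ± 4.58 CPM. Ccl3 values are uncertain, because they held 0.5 of a read in 20 of 48 libraries and AC114233.1, a gene known by this identifier alone, held it in the same 20, at 0.294 to 0.573 (median 0.399) of the Ccl3 level. The 2 genes thus shared reads in the counting, and results for their sum are given beside the main results for Ccl3.

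Ccl4 stood at 0.268, 0.588 and 0.5901 CPM in Control and at 3.701, 5.29 and 1.89 CPM in Tat, while Tat-Cocaine libraries read 0.937, 2.78 and 2.25 CPM. Without Tat it read 0.425, 1.02 and 0.563 CPM with Cocaine, 0.147, 1.03 and 0.167 CPM with 4OI, 0.251, 0.272 and 0.603 CPM with Amlexanox, 0.628, 0.567 and 0.546 CPM with Tazemetostat and 0.134, 0.515 and 0.377 CPM with Senicapoc, which is 4 to 24 reads a library. With Tat, 4OI gave 1.12, 1.83 and 1.75 CPM, Amlexanox 2.34, 2.11 and 1.09 CPM, Tazemetostat 3.38, 4.87 and 1.78 CPM and Senicapoc 1.69, 1.61 and 1.62 CPM. All 3 libraries of each of these 4 groups were above the Control libraries, and the share of all genes for which this held was not computed. With Tat and cocaine, 4OI gave 1.03, 1.399 and 1.34 CPM, Amlexanox 1.67, 1.39 and 1.22 CPM, Tazemetostat 2.27, 5.198 and 3.71 CPM and Senicapoc 1.298, 1.87 and 2.01 CPM. In each of Ccl3 and Ccl4, 14 of the 15 neighbouring groups overlapped.

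**Figure D1:**
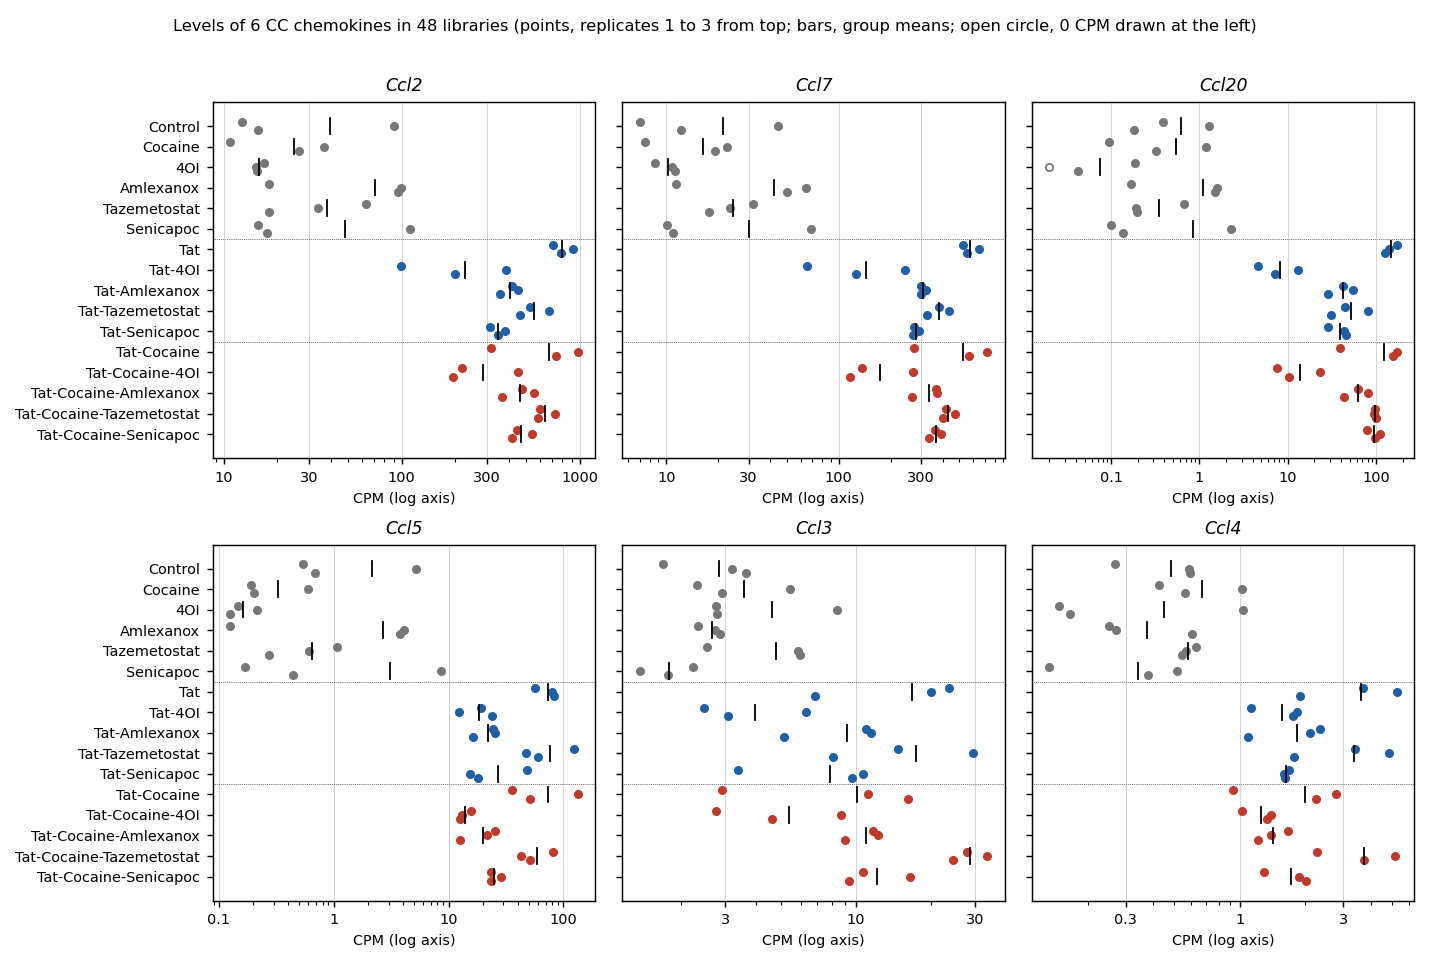
Level of each of the 6 genes in CPM on a log axis (horizontal) in the 16 groups (vertical). Points are libraries, black bars are group means, grey marks cultures without Tat, blue with Tat and red with Tat and cocaine. Every library of the Tat group lies above every Control library for all 6 genes, and the groups with 4OI are the lowest Tat groups for Ccl2, Ccl7, Ccl20, Ccl5 and Ccl3.

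The comparison of Tat with Control asked which of these genes the viral protein raised. All 6 rose (limma, false discovery rate (FDR) under 0.05 over 15890 genes, of which 21.3% were called). On the log2(CPM + 0.5) scale the median change of the 6 was 5.02, against 0.01 over all genes tested. Ccl20 rose by 7.16 (SE 0.54), Ccl5 by 5.24 (SE 0.69), Ccl7 by 5.14 (SE 0.58) and Ccl2 by 4.89 (SE 0.64). Ccl3 rose by 2.25 (SE 0.52) and Ccl4 by 2.00 (SE 0.33), with FDR values of 0.00191 and 3.74e-05. The sum of Ccl3 and AC114233.1 changed by 2.23 (FDR 0.00223). The Tat libraries lay above those of Control without overlap for all 6 genes, as they did for 19.4% of all genes. All 6 calls were kept when any single Control or Tat library was left out. With Tat and cocaine together 5 of 6 lay above Control without overlap, as did 15.1% of all genes, and the same 5 rose against Control (background 14.9%). Ccl20 rose by 6.64 (SE 0.54), Ccl5 by 5.04 (SE 0.69), Ccl7 by 4.90 (SE 0.58), Ccl2 by 4.52 (SE 0.64) and Ccl4 by 1.28 (SE 0.33). Ccl3 changed by 1.44 (FDR 0.0597) and was not called, and its sum with AC114233.1 changed by 1.40 (FDR 0.0672). In this comparison the deviations of same-numbered replicates correlated above 0.1, though no label says that replicate numbers mark a batch. With the replicate number as a block over all 48 libraries, Ccl3 was called (FDR 0.0197). Leaving out Tat-Cocaine replicate 1, the lowest Tat-Cocaine library for all 6 genes, also called Ccl3 at 2.11 (FDR 0.00651), and leaving out Tat-Cocaine replicate 2 lost Ccl4 at 1.04 (FDR 0.0663).

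No change of the 6 genes with cocaine passed the test. Against Control, Cocaine gave changes from -1.24 for Ccl5 to 0.26 for Ccl3, with 0 of 6 called by limma and 0 at an unadjusted p under 0.05 (background 0.201%). The 95% interval for Ccl2 was -1.55 to 1.05, so smaller changes were not detectable with 3 libraries a group. Added to Tat, cocaine gave 0 of 6 called (background 0.0189%), with changes from -0.82 to -0.20 and 1 gene, Ccl4, at an unadjusted p under 0.05. Averaged over the 5 backgrounds of Tat and Tat with each compound, cocaine gave 0 of 6 called (background 4.55%). The narrowest interval in that average was for Ccl4 (-0.50 to 0.11), and the highest estimate was for Ccl20, 0.60 (SE 0.24) with FDR 0.144, the 1 gene at an unadjusted p under 0.05. Without Tat-Cocaine replicate 1 the Ccl20 value was 0.74 (FDR 0.0479) and was called.

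The compounds given alone were compared with Control. With 4OI 0 of 6 genes were called (background 3.15%), and Ccl5, -1.53 (FDR 0.316), was the 1 gene at an unadjusted p under 0.05 and the 1 below Control without overlap, as 6.04% of all genes were. With Tazemetostat and with Senicapoc 0 of 6 were called and 0 passed at an unadjusted p under 0.05, in comparisons where 0% of all genes were called although 576 and 1378 genes had an unadjusted p under 0.05. With Amlexanox 0 of 6 were called and 0 passed at an unadjusted p under 0.05 (background 11.4%). Ccl2 and Ccl7 were then at 1.07 (SE 0.64) and 1.07 (SE 0.58). Leaving out Amlexanox replicate 1, the low library of the group, gave 2 of 6 called, with Ccl2 at 1.87 (FDR 0.0429) and Ccl7 at 1.82 (FDR 0.0269).

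The comparison of Tat-4OI with Tat asked whether the itaconate ester lowered the chemokines in Tat cultures. All 3 Tat-4OI libraries lay below all 3 Tat libraries for each of the 6 genes, a separation found for 17.2% of all genes, and 5 of 6 fell by the test (background 15.6%). The median change of the 6 was -2.00, against -1.95e-04 over all genes. Ccl20 changed most, by -4.18 (SE 0.54) with FDR 1.41e-06, and Ccl7 by -2.18 (SE 0.58) with FDR 0.00943. Ccl2 changed by -2.01 (FDR 0.0289), Ccl5 by -1.99 (FDR 0.0447) and Ccl3 by -1.88 (FDR 0.0133), and the sum of Ccl3 and AC114233.1 by -1.92 (FDR 0.0119). Ccl4 changed by -0.92 (FDR 0.0549) and was not called. Over the 6 fits that left out 1 Tat or Tat-4OI library, Ccl20 was called each time and Ccl7 each time but without Tat-4OI replicate 1 (FDR 0.0947). Ccl5 was called in 0 of the 6 (FDR 0.0646 to 0.146), and also not with a pseudocount of 0.1 CPM, no minimum or quantile scaling (FDR 0.0513 to 0.111). Ccl2 and Ccl3 were not called without Tat replicate 1 or 2 or Tat-4OI replicate 1 or 3. Ccl4 was called without Tat replicate 3, at -1.27 (FDR 0.0128). The log2 changes of Ccl2 over these 6 fits ranged from -2.50 to -1.52.

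Against 4OI alone, Tat raised 5 of the 6 genes in the presence of 4OI (background 5.18%). The same 5 lay above 4OI without overlap, as did 15.7% of all genes. Ccl5 rose by 4.79 (SE 0.69), Ccl20 by 3.83 (SE 0.54), Ccl2 by 3.60 (SE 0.64), Ccl7 by 3.57 (SE 0.58) and Ccl4 by 1.23 (SE 0.33). Ccl3 was at -0.13 (FDR 0.937), with an interval of -1.19 to 0.94, and its sum with AC114233.1 at -0.15 (FDR 0.924). Ccl4 was no longer called without 4OI replicate 1 (FDR 0.164), 4OI replicate 3, Tat-4OI replicate 2 or Tat-4OI replicate 3. The difference between the Tat response with 4OI and without it was tested directly, and 1 of 6 genes passed (background 0.497%). That gene was Ccl20, whose Tat response under 4OI minus that without it was -3.34 (SE 0.76) on the log2 scale, with FDR 0.0298. Its call was lost without any one of Control replicate 1 or 3, 4OI replicate 1 or 3, Tat replicate 1 or 2, and Tat-4OI replicate 1 or 3, with estimates from -3.37 to -3.01 and FDR 0.0757 to 0.122. It was also lost with a pseudocount of 0.1 CPM, at -2.41 (FDR 0.3899), and the 4OI libraries held 0 to 5 Ccl20 reads each. The size of this difference thus depends on the pseudocount. By group means without a pseudocount, Ccl20 in Tat-4OI was 10946% of its level in 4OI, and in Tat 23965% of its level in Control. Ccl3 was at -2.38 (FDR 0.153) in this test, with its sum with AC114233.1 at -2.37 (FDR 0.154), and Ccl3 was called without Tat replicate 3 at -2.91 (FDR 0.0471). For Ccl2, Ccl4, Ccl5 and Ccl7 the differences were -1.30, -0.77, -0.46 and -1.57, none of them called.

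Amlexanox, Tazemetostat and Senicapoc were compared with Tat in the same way. In Tat-Amlexanox cultures the libraries of Ccl2, Ccl7, Ccl20 and Ccl5 lay below those of Tat without overlap, as did 9.69% of all genes, but 0 of 6 genes were called (background 0.837%). Ccl20 was at -1.84 (FDR 0.09197) and Ccl5 at -1.71 (FDR 0.26998), and 3 genes, Ccl20, Ccl5 and Ccl4, had an unadjusted p under 0.05. Same-numbered replicates of this pair of groups deviated together, though no label makes that number a batch. With it as a block over all 48 libraries, Ccl20 was called (FDR 0.01501). In Tat-Senicapoc cultures 5 of 6 genes, all but Ccl3, lay below Tat without overlap, as did 13.6% of all genes, and 0 of 6 were called (background 0.409%). Ccl20 was at -1.92 (FDR 0.0857), Ccl5 at -1.58 (FDR 0.226) and Ccl2 at -1.20 (FDR 0.3099), and Ccl20, Ccl5 and Ccl4 had an unadjusted p under 0.05. In Tat-Tazemetostat cultures Ccl2, Ccl7 and Ccl20 lay below Tat without overlap, as did 4.53% of all genes, and 0 of 6 were called in a comparison where 0% of all genes were called and 851 had an unadjusted p under 0.05. Ccl20 was at -1.59 (FDR 0.614), the 1 member at an unadjusted p under 0.05, while Ccl3 at 0.04 and Ccl5 at -0.03 had intervals of -1.03 to 1.10 and -1.43 to 1.36. The sum of Ccl3 and AC114233.1 was at -0.75 (FDR 0.619), 0.06 (FDR 0.999) and -0.999 (FDR 0.304) with Amlexanox, Tazemetostat and Senicapoc. These 4 comparisons share the Tat libraries.

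Tat raised all 6 genes against the same compound alone for Amlexanox (background 39.6%), Tazemetostat (background 16.1%) and Senicapoc (background 16%). All 6 lay above the compound alone without overlap, as did 27.1%, 19.6% and 19% of all genes in that order. The Ccl20 rise was 4.86 (SE 0.54) with Amlexanox, 5.88 (SE 0.54) with Tazemetostat and 5.25 (SE 0.54) with Senicapoc. The Ccl5 rise was 3.26 (SE 0.69), 6.00 (SE 0.69) and 3.76 (SE 0.69) in the same order. Ccl2 rose by 2.85, 4.00 and 3.45, and Ccl7 by 3.17, 3.97 and 3.78. Ccl3 rose by 1.55, 1.65 and 1.75, and Ccl4 by 1.40, 1.75 and 1.37. The sum of Ccl3 and AC114233.1 rose by 1.57 (FDR 0.0195), 1.67 (FDR 0.0267) and 1.78 (FDR 0.0188). Ccl3 was the gene whose call was lost on leaving out a library: Amlexanox replicate 3 or Tat-Amlexanox replicate 1 or 2 (FDR up to 0.0844), Tazemetostat replicate 1 or Tat-Tazemetostat replicate 1 or 2 (FDR up to 0.238), and Senicapoc replicate 2 or 3 or Tat-Senicapoc replicate 2 or 3 (FDR up to 0.118). The direct test of the difference in the Tat response called 0 of 6 genes for Amlexanox (background 1.84%), Tazemetostat (background 0%) and Senicapoc (background 0%). For Amlexanox 4 genes had an unadjusted p under 0.05, with Ccl20 at -2.30 (FDR 0.0938), Ccl2 at -2.04 (FDR 0.215), Ccl5 at -1.98 (FDR 0.273) and Ccl7 at -1.97 (FDR 0.182). All 4 were called without Amlexanox replicate 1, the low library of that group, with Ccl20 at -2.84 (FDR 0.0192) and Ccl2 at -2.84 (FDR 0.0363). For Tazemetostat 0 genes and for Senicapoc 1 gene, Ccl20, had an unadjusted p under 0.05, and over all genes 271 and 762 did.

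**Figure D2:**
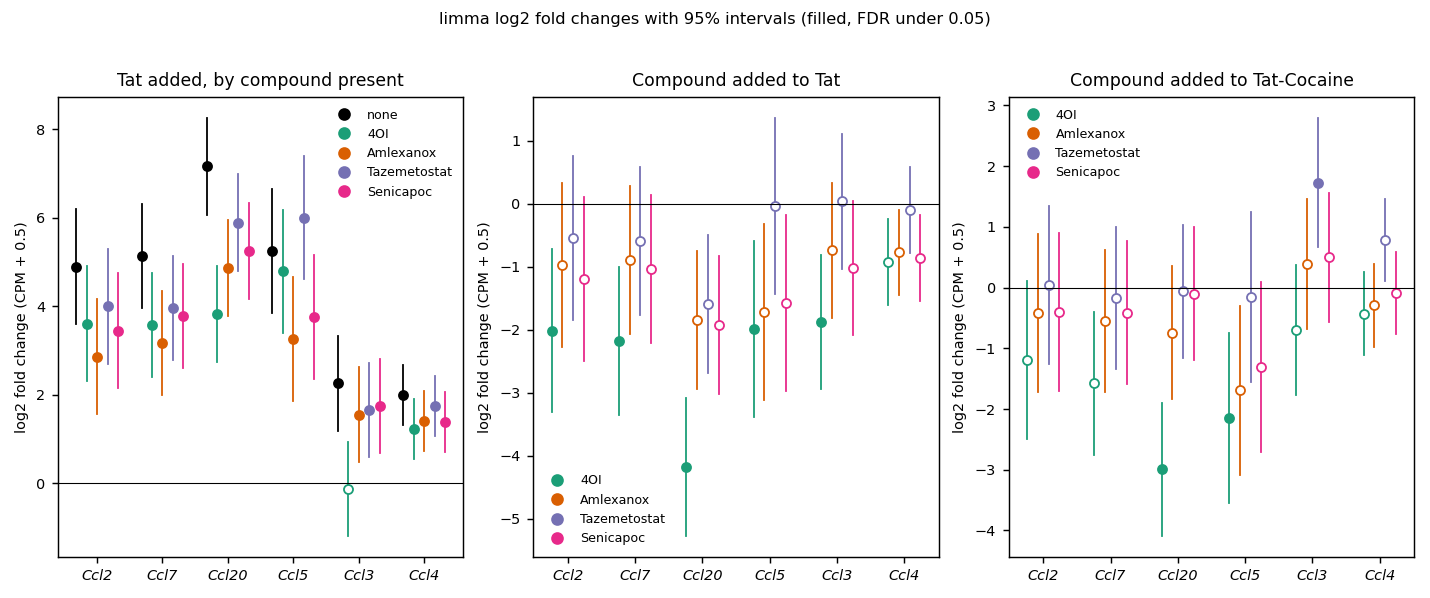
limma log2 fold change on the CPM + 0.5 scale (vertical) of each gene (horizontal), with 95% intervals and filled points where FDR was under 0.05, for Tat added to each background (left), each compound added to Tat (middle) and each compound added to Tat and cocaine (right). The rise with Tat spans 2.00 to 7.16 without a compound, and in the middle panel the filled points all belong to 4OI.

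The same compounds were then compared in cultures with Tat and cocaine. 4OI lowered 2 of 6 genes (background 7.36%), Ccl20 at -3.00 (SE 0.54) with FDR 3.20e-04 and Ccl5 at -2.15 (SE 0.69) with FDR 0.0496, just under the threshold. Ccl7 was at -1.58 (FDR 0.0929), Ccl2 at -1.20 (FDR 0.283), Ccl3 at -0.70 (FDR 0.477) and Ccl4 at -0.43 (FDR 0.496), and the sum of Ccl3 and AC114233.1 at -0.72 (FDR 0.464). Ccl20, Ccl5 and Ccl7 lay below Tat-Cocaine without overlap, as did 8.8% of all genes. The Ccl5 call was lost without Tat-Cocaine replicate 2 or 3 or any one Tat-Cocaine-4OI replicate, with estimates from -2.29 to -1.61, and the Ccl20 call was kept each time. Tazemetostat raised 1 of 6, Ccl3, by 1.73 (SE 0.52) with FDR 0.01804 (its sum with AC114233.1 by 1.75, FDR 0.0174), in a comparison where 28.7% of all genes were called. The 3 Tat-Cocaine-Tazemetostat libraries lay above the 3 Tat-Cocaine libraries for Ccl3 and for no other of the 6 genes, a separation found for 24.8% of all genes. Without Tat-Cocaine replicate 1 the Ccl3 value was 1.05 (FDR 0.184), and it was also not called without Tat-Cocaine replicate 2 (FDR 0.05002) or Tat-Cocaine-Tazemetostat replicate 2 (FDR 0.0886). Ccl4 was at 0.79 (FDR 0.0714) and was called without Tat-Cocaine-Tazemetostat replicate 1 (FDR 0.0427). With Amlexanox 0 of 6 were called (background 0.925%) and Ccl5, at -1.69 (FDR 0.198), was the 1 gene at an unadjusted p under 0.05. With Senicapoc 0 of 6 were called and 0 had an unadjusted p under 0.05 (background 0.0441%). Ccl5 lay below Tat-Cocaine without overlap in both, as did 11.1% of all genes with Amlexanox and 8.2% with Senicapoc. These 4 comparisons share the Tat-Cocaine libraries, of which replicate 1 was the lowest for every one of the 6 genes.

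The 6 genes did not all vary together among replicates. Correlations are given as descriptions over 48 libraries that share their treatments, so the values with each group's mean removed are given beside them. Ccl2 and Ccl7 had Pearson's r of 0.996 over all libraries and 0.978 within groups. Ccl2 and Ccl20 had 0.968 and 0.873, and Ccl2 and Ccl5 had 0.961 and 0.754. Ccl3 and Ccl4, the other neighbouring pair, had 0.865 and 0.711. Ccl3 had lower values within groups with Ccl2 (0.290) and Ccl5 (-0.0533), and Ccl20 lay between, at 0.518 with Ccl3 and 0.541 with Ccl4. Within groups, then, the libraries high for Ccl2 were most often high for Ccl7 and Ccl20, and less so for Ccl3.

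**Figure D3:**
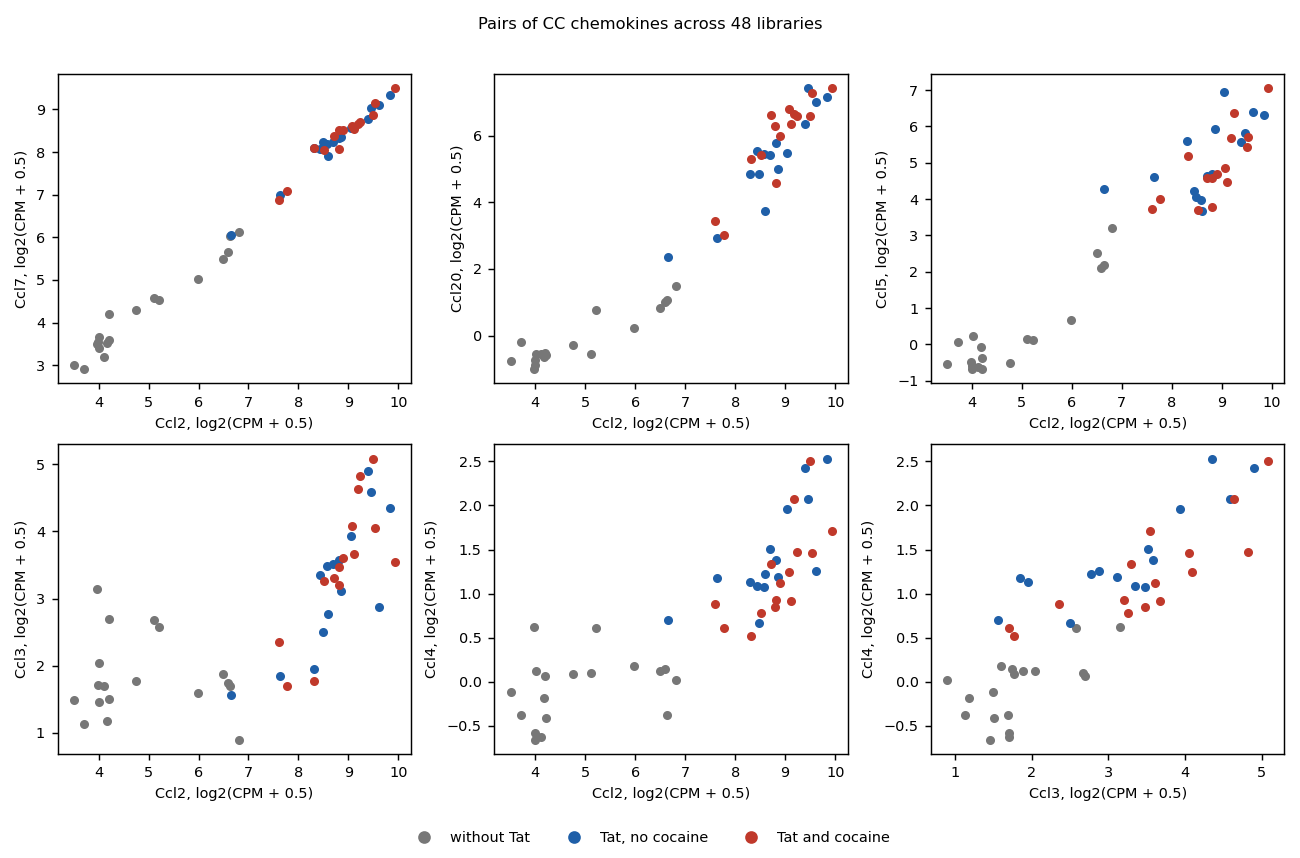
Each panel sets 1 gene against another as log2(CPM + 0.5) in the 48 libraries, grey without Tat, blue with Tat and red with Tat and cocaine. Ccl2 and Ccl7 lie on a narrow line (r = 0.996), whereas Ccl3 does not follow Ccl2 among the grey points.

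By Pearson's r over the 48 libraries, given first with the value within groups after it, the genes most like Ccl2 were Ccl7, Nfkbia (0.984 and 0.923), Sod2 (0.983 and 0.946), Cxcl1 (0.982 and 0.927) and Birc3 (0.979 and 0.888). For Ccl7 they were Ccl2, Sod2, Upp1, Birc3 and Nfkbia, between 0.980 and 0.996 over all libraries and between 0.859 and 0.978 within groups. For Ccl20 they were Nfkbiz (0.982 and 0.812), Slpi (0.978 and 0.704), Il1rn (0.977 and 0.752), Gsap (0.977 and 0.822) and Ccl7 (0.976 and 0.845). For Ccl5 they were Ccl2, Ccl7, Timp1, Upp1 and Cxcl1, between 0.948 and 0.961 over all libraries and between 0.675 and 0.7596 within groups. For Ccl3 they were AC114233.1 (0.990 and 0.968), with which it shares reads, then Rab8a (0.947 and 0.8501), Mapkapk2 (0.936 and 0.816), Tlr2 (0.936 and 0.836) and Itpripl2 (0.935 and 0.866). For Ccl4 they were Tnip1 (0.930 and 0.643), Cxcl16 (0.928 and 0.7099), Zmynd15 (0.922 and 0.707), AABR07002674.1 (0.918 and 0.653) and Cd69 (0.913 and 0.563), so that Ccl4 had no gene as close as the nearest one of each other member.

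Other genes of the pathway were counted from lists. Of 14 other CC ligands 7 passed the filter, and with Tat 4 rose and 1 fell (background 21.3%). Those that rose were Ccl6 (2.46), Ccl12 (3.88), Ccl19 (4.84) and Ccl22 (3.51) on the log2 scale. Ccl17, a ligand of Ccr4, fell by 0.98, at a mean over all libraries of 0.253 CPM, below the 0.5 CPM of the filter. Tat-4OI against Tat lowered 4 of the 7 (background 15.6%), namely Ccl6 (-1.57), Ccl12 (-2.24), Ccl19 (-2.75) and Ccl22 (-3.58). Ccl22, which draws regulatory T cells, also had a smaller Tat response under 4OI (-3.77). Amlexanox added to Tat lowered 1 of the 7 (background 0.837%), Ccl19 (-3.29), a ligand of Ccr7. It did so with cocaine too (-3.14, background 0.925%). Tazemetostat added to Tat-Cocaine raised Ccl6 (1.14), Ccl9 (1.66) and Ccl12 (1.62) and lowered Ccl27 (-0.80), where 28.7% of all genes were called. Of the CC receptors, Ccr3 (mean 0.851 CPM) fell with Tat (-2.19) and with Tat and cocaine (-2.11) against Control. Tat-4OI against Tat lowered Ccr1 (-1.54), a receptor of Ccl3 and Ccl5, and with cocaine as well 4OI lowered it (-2.49). Ccr1 also fell with 4OI alone (-1.24) and with Tat in the presence of 4OI (-1.24). Ccr6, the receptor of Ccl20, had a mean of 0.0283 CPM, and Ccr2 was not analysed here. Of 4 decoy or atypical receptors 2 passed the filter, and Ccrl2 (mean 0.625 CPM) rose with Tat (0.95) and fell with 4OI added to Tat (-1.25).

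Of 13 genes for NF-κB subunits and their feedback regulators, 12 rose with Tat (background 21.3%). With 4OI added to Tat 10 fell (background 15.6%). The list medians in these 2 comparisons were 1.59 and -1.02 on the log2 scale. The most abundant of the 13 genes, the inhibitor Nfkbia, changed by 2.41 and -1.29, and the coactivator Nfkbiz by 4.00 and -2.04. With 4OI added to Tat-Cocaine 2 of 13 fell (background 7.36%), Nfkbiz (-1.04) and the feedback regulator Tnip3 (-1.84), with a list median of -0.28. The Tat response under 4OI was smaller for 1 of 13 (background 0.497%), Tnip3 (-3.34). With Amlexanox, Tazemetostat or Senicapoc added to Tat 0 of 13 were called by limma (background 0.837%, 0% and 0.409%). Of 9 upstream cytokines 4 passed the filter, and Il1a (1.82), Il1b (3.96) and Il6 (1.51) rose with Tat (background 21.3%). Il1a (-1.87) and Il1b (-2.25) fell with 4OI added to Tat (background 15.6%). With 4OI added to Tat-Cocaine 0 of the 4 were called by limma (background 7.36%). In the difference of Tat responses under 4OI 0 of the 4 were called too (background 0.497%). Tnf had a mean of 0.00535 CPM.

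Microglia and macrophages were followed through 12 marker genes, and all 12 passed the filter, with none at 0 throughout. Their summed level was 909, 1509 and 1069.9 CPM in Control, 1351, 2254 and 1319 CPM in Tat and 754, 1199 and 566 CPM in Tat-4OI cultures. It was 1301, 869 and 1423 CPM in Tat-Cocaine, 407, 1239.6 and 516 CPM in Tat-Cocaine-4OI and 2282, 3273 and 2038 CPM in Tat-Cocaine-Tazemetostat cultures. All 3 Tat-4OI libraries lay below all 3 Tat libraries, and all 3 Tat-Cocaine-Tazemetostat libraries above all 3 Tat-Cocaine libraries. Among single genes these separations were found for 17.2% and 24.8% of all genes in that order. With Tat 4 of the 12 rose and 1 fell (background 21.3%), with 4OI added to Tat 3 fell (background 15.6%), with 4OI added to Tat-Cocaine 2 fell (background 7.36%), and with Tazemetostat added to Tat-Cocaine 7 rose (background 28.7%). The sum had Pearson's r within groups of 0.630 with Ccl3 and 0.500 with Ccl4. The values were 0.508 with Ccl2, 0.518 with Ccl7, 0.521 with Ccl20 and 0.0737 with Ccl5. In Tat-Cocaine-Tazemetostat cultures the higher sum stood beside the rise of Ccl3, while Ccl2 (0.05), Ccl5 (-0.15), Ccl7 (-0.17) and Ccl20 (-0.06) were not called. In Tat-Cocaine-Senicapoc cultures the sum was 1749, 2196 and 1572 CPM, also above every Tat-Cocaine library. Ccl3 was at 0.50 (FDR 0.657) in that comparison and was not called. The share of all genes higher there without overlap was not computed. In Tat-Tazemetostat cultures the sum was 1468, 3298 and 1661 CPM, with replicates 1 and 3 inside the range of the Tat libraries. Ccl2, Ccl7 and Ccl20 lay below Tat there without overlap, as did 4.53% of all genes, and 0 of 6 members were called. Whether the marker sum accounts for any change of the chemokines was not tested.

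The 3 border macrophage markers Mrc1, Cd163 and Lyve1 summed to 440.3, 448 and 489 CPM in Control, 289, 258 and 196 CPM in Tat and 76.1, 180.3 and 39.2 CPM in Tat-4OI cultures. They summed to 248, 199.9 and 401 CPM in Tat-Cocaine and 30, 145 and 39.4 CPM in Tat-Cocaine-4OI cultures. The libraries did not overlap in any of the comparisons of Tat with Control, 4OI added to Tat and 4OI added to Tat-Cocaine. Among all genes, 17.2% were lower without overlap with 4OI added to Tat and 8.8% with 4OI added to Tat-Cocaine. The share lower with Tat against Control was not computed. With Tat 2 of the 3 fell (background 21.3%), Cd163 (-2.86) and Lyve1 (-1.82). All 3 fell with 4OI added to Tat (list median -1.92, background 15.6%) and with 4OI added to Tat-Cocaine (list median -3.64, background 7.36%). Of 5 neutrophil markers S100a8 and Csf3r passed the filter, and both rose with Tat (3.30 and 2.71, background 21.3%). The markers S100a9, Mpo and Elane had means of 0.0461, 0.0532 and 0.00101 CPM. S100a8 fell with 4OI added to Tat (-1.74). Of 7 astrocyte markers 3 fell with Tat (background 21.3%). With 4OI added to Tat 1 rose (background 15.6%), and with 4OI added to Tat-Cocaine 3 rose (background 7.36%). Of 5 fibroblast and mural cell markers 1 and 2 fell in the same 2 comparisons with 4OI. With Tazemetostat added to Tat-Cocaine, 28.7% of all genes were called in either direction. In that comparison 6 of 7 neuron markers (list median -1.03) and 2 of 5 oligodendrocyte markers (list median -2.83) fell. So did 2 of 4 oligodendrocyte precursor markers (list median -0.53) and 2 of 5 fibroblast and mural cell markers. Of astrocyte markers 1 of 7 fell, of border macrophage markers 1 of 3 and of endothelial markers 1 of 2. The part of these cell types in the chemokine results was not tested.

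**Figure D4:**
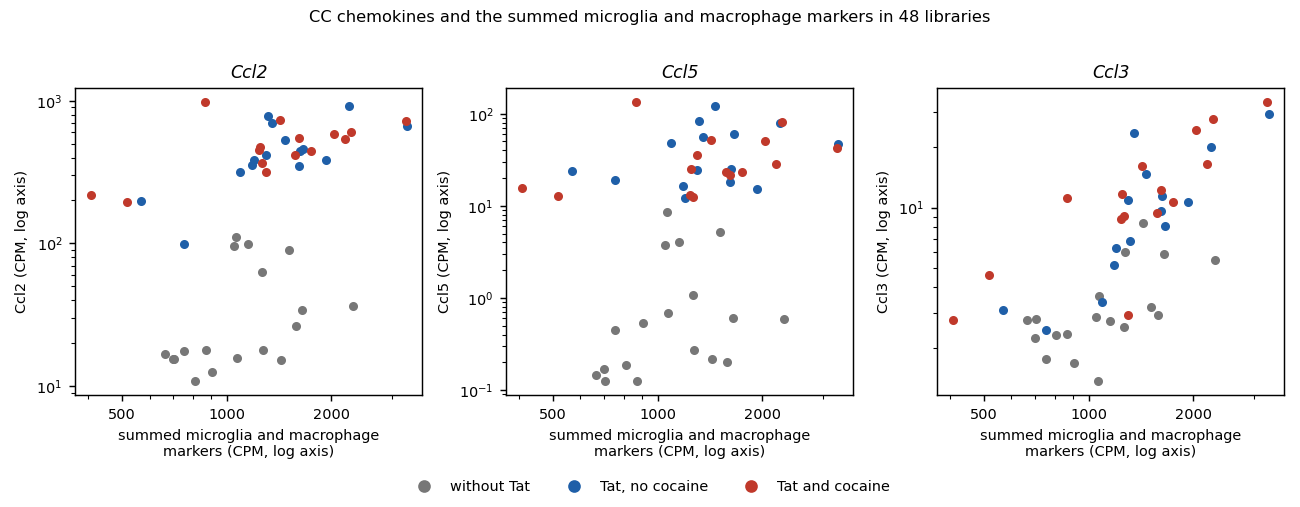
Levels of Ccl2, Ccl5 and Ccl3 in CPM (vertical, log axis) against the summed CPM of 12 microglia and macrophage markers (horizontal, log axis) in 48 libraries, grey without Tat, blue with Tat and red with Tat and cocaine. Of the 30 libraries with Tat, 29 lie above every grey one for Ccl2, 30 for Ccl5 and 20 for Ccl3. Such counts were not made over all genes. The part of microglia in these differences was not tested.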

How the data were processed

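The authors deposited a normalised signal per gene, CPM (counts per 1e+06 reads) after TMM scaling, for each of 48 libraries. Per the labels, reads were trimmed with Trim Galore 0.4.5, aligned with STAR 2.7.2 and counted with Subread 1.5.3 featureCounts from a strand-marking kit. The study's methods name the rat assembly Rnor_6.0, whereas the submitters' processing notes list mRatBN7.2 and hg38, so no gene coordinates are given from the table. Values were not whole reads (84.8 to 86.8% of low values lay within 0.02 of a whole read), so no count model was run. The deposited means of 16 groups and the columns of 36 comparisons by the authors (fold changes and p-values) were not used. Genes with at least 0.5 CPM in 3 libraries (15890) were fitted as log2(CPM + 0.5) with limma 3.58.1 (trend) in R 4.3.3, 1 mean per group over all 48 libraries, and 25 comparisons were made with Benjamini-Hochberg FDR under 0.05 over all genes of each comparison. The fit was tested on simulated data. Replicates of a group always differed by more than sampling noise (chi-square per degree of freedom 5.86 to 130 over 48 pairs).

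Members and lists were chosen with earlier results of these data known. Named genes are the 6 members, up to 4 genes of a list with the highest mean CPM or, where 5 or fewer were called, those, and the 5 genes with the highest Pearson's r to each member. Alternatives were pseudocounts of 0.1 and 1 CPM, no minimum and a minimum of 2 CPM, median ratio and quantile scaling, limma without a trend, smaller sets of libraries, a replicate block, and leaving out each library. No label says that same-numbered replicates share a batch, and pairing was read from these data. The deviations of all 3 same-numbered pairs correlated above 0.1 in 6 of 20 comparisons between 2 groups. Among them were Tat-Cocaine with Control and Tat-Amlexanox with Tat. For Tat-Cocaine with Tat the correlations were -0.36, -0.14 and -0.78. The block was 1 effect per replicate number, shared by all 48 libraries. The sum of Ccl3 and AC114233.1 was added after seeing the data. Counts over the list of CC receptors are not reported here.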

Additional observations from a re-analysis of the deposited data

Results flagged for a closer look

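The difference in the Ccl20 response to Tat with and without 4OI was -3.34 on the log2 scale. It was marked because the test of the difference itself (limma, SE 0.76, FDR 0.0298) passed, and it was the 1 gene of 6 that did. Ccl20 was higher in 3 of 3 Tat libraries than in every Control library and in 3 of 3 Tat-4OI libraries than in every 4OI library. The estimate rests on 4OI libraries of 0 to 5 reads. With a pseudocount of 0.1 CPM it was -2.41 (limma, FDR 0.3899) and was not called.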

How the results depend on the processing

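Of the 25 counts of called genes, 216 of 234 recomputed under other settings stayed within 1.5 times the reported count. For Tat-Cocaine-4OI against Tat-Cocaine (reported 2) the count was 1 with a pseudocount of 0.1 CPM, no minimum, median ratio or quantile scaling, or no trend, and 0 when fitted to the compared groups alone. For the difference of Tat responses under 4OI (reported 1) it was 0 with a pseudocount of 0.1 CPM, in the compared groups alone and in 21 libraries of 7 groups, and 2 with the replicate block. For Tat-4OI against Tat (reported 5) it was 3 in 21 libraries. For Tat-Cocaine-Tazemetostat against Tat-Cocaine (reported 1) it was 0 in the compared groups alone and 2 with the block. With the block, as with a pseudocount of 1 CPM, it was 1 (reported 0) for Tat-Amlexanox and for Tat-Senicapoc against Tat, and the block gave 1 (reported 0) for the difference under Amlexanox. The causes were not tested. The block changed no other count by over 1.5 times, and by the labels its replicates share only a number in every comparison. Leaving out 1 library gave counts of 1 to 5 for Tat-4OI against Tat, 1 to 2 for Tat-Cocaine-4OI, 0 to 2 for Tat-Cocaine-Tazemetostat, 0 to 2 for Amlexanox against Control, 0 to 2 for the difference under 4OI, 0 to 4 for that under Amlexanox, and 0 to 1 for cocaine over 5 backgrounds. Of 1260 single values recomputed, 68 lost their call, 22 gained one and 0 turned direction with a call. The pseudocount limits Ccl20, Ccl5 and Ccl4 without Tat, where median reads were 5, 13.5 and 12.5 a library.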
